A study of Mus musculus with 12 samples.

Results

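OTUB1 knockdown lung tumours were compared with their negative-control tumours in mice. The comparison uses 6 of the 12 libraries of the series: 3 labelled negative control (NC) and 3 labelled OTUB1 knockdown (OTUB1_KD), and every gene of the table enters it. In both groups the tumours grew from LLC cells, the Lewis lung carcinoma line, which were placed in the lung (an orthotopic model) after lentivirus had been introduced in culture. NC cells had received a negative-control lentivirus and carry the genotype label WT. OTUB1_KD cells had received a lentivirus that knocks down OTUB1. All 6 libraries are labelled as lung cancer tissue, with no further treatment. The labels give no strain, age or sex, and do not say whether each library came from its own animal or whether the OTUB1_KD libraries share 1 hairpin. The p-values therefore measure the spread between these libraries only, which may be technical.

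OTUB1 is a deubiquitinase of the OTU (ovarian tumour protease) family. It removes ubiquitin chains from proteins, and it also binds some ubiquitin-conjugating (E2) enzymes and holds back chain formation without cutting. A tumour growing in the lung contributes RNA from carcinoma cells, and the dissected tissue also contributes RNA from alveolar and airway epithelium, vessels, stroma and leukocytes, so a gene's level in bulk RNA depends on the mixture as well as on each cell. Fewer cells of a type and less RNA per cell cannot be told apart in such data.

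Library totals ranged from 16062806 to 18028828 counts. Levels are given in CPM, a gene's counts scaled to a common library total, after TMM scaling. TMM scaling applies a factor to each library total and does not correct for cell makeup. Values in a row follow replicates 1, 2 and 3. Counting 3 reads over the NC group corresponds to 0.0617 CPM, and over OTUB1_KD to 0.0555 CPM; a fold against a group without counts is a lower bound set at that floor. The 3 NC libraries were almost alike, with Pearson correlations over genes of log2(CPM + 1) between 0.9988 and 0.9989. Correlations among the OTUB1_KD libraries were 0.958 to 0.970, and between the groups 0.748 to 0.848; OTUB1_KD replicate 1 was nearest to NC and OTUB1_KD replicate 2 farthest. Between 11643 and 11685 genes reached 1 CPM in an NC library, against 14250 to 14516 in an OTUB1_KD library.

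The tissue label was checked against 251 markers in 23 lists of lung, vessel, stromal, blood and immune cells. In NC, 181 of these markers stayed under 1 CPM in every library and 67 had no count at all. In OTUB1_KD, 6 markers stayed under 1 CPM in every library and every marker had counts. Ptprc, the leukocyte surface protein CD45, had 3 counts over the 3 NC libraries and 10828 over the 3 OTUB1_KD libraries. Sftpc, which defines alveolar type 2 cells, had 2 counts in NC, and Cdh5, which defines endothelium, had 0. Defining markers of lung tissue and leukocytes were thus at or near 0 in NC and present in OTUB1_KD. The knockdown and this difference in cell makeup cannot be told apart in the comparison.

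Otub1, the targeted gene, was at 78.0, 75.6 and 71.5 CPM in NC and 57.0, 47.4 and 71.1 CPM in OTUB1_KD. Every OTUB1_KD library lay below every NC library, which also held for 35.2% of all genes tested. OTUB1_KD replicate 3, at 71.1 CPM, was next to the lowest NC library at 71.5 CPM. The difference did not pass the test (log2 fold change -0.36 ± 0.18, adjusted p = 0.112), and an exact two-sided permutation test gave p = 0.1, the smallest that 3 against 3 libraries allow. The log2 fold change was -0.53 without OTUB1_KD replicate 3 (adjusted p = 0.015) and -0.24 without OTUB1_KD replicate 2 (adjusted p = 0.188). The library with the lowest Otub1, OTUB1_KD replicate 2, had almost no carcinoma RNA by the Y-linked measure given next, so a change within carcinoma cells cannot be told apart from the mixture.

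The background of this comparison was high: of 14785 genes tested, 9721 (65.7%) passed an adjusted p of 0.05, 5903 (39.9%) higher and 3818 (25.8%) lower in OTUB1_KD. The groups did not overlap for 79.2% of genes, 43.9% higher and 35.2% lower. With limma on log2 TPM, which changes both the measure and the test, 52.1% of the called genes were higher, against 60.7% here. The median log2 fold change over all genes was 0.16. At least 2-fold differences were called for 4875 higher and 2167 lower genes, and 748 of the higher genes had no count in NC. Of the 5064 genes not called, 218 had a fitted difference of 2-fold or more.

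Y-linked genes gave a first measure of how much carcinoma RNA each OTUB1_KD library held. Ddx3y, Eif2s3y, Kdm5d and Uty, which are expressed widely in male cells, were high in every NC library, and their summed CPM in OTUB1_KD was 36.9%, 0.184% and 7.08% of the NC mean. Exact 95% Poisson intervals, which cover counting error only, were 35.4% to 38.4%, 0.0919% to 0.329% and 6.43% to 7.77%, so the 3 libraries did not overlap. OTUB1_KD replicate 2 carried lung markers in abundance with 11 Y-linked counts in all. The host's sex is not in the labels, so the share assumes host tissue with as little Y-linked RNA as OTUB1_KD replicate 2. These percentages use CPM over the library total.

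The 4 genes gave the same order when taken singly. Ddx3y stood at 38.4%, 0.185% and 5.93% of the NC mean in OTUB1_KD replicates 1, 2 and 3. Eif2s3y stood at 35.1%, 0.0436% and 6.95%. Kdm5d stood at 34.4%, 0% and 9.16%, its 0 counts in OTUB1_KD replicate 2 allowing up to 0.358%. Uty stood at 41.1%, 0.881% and 8.59%. Each of the 4 lay below every NC library in every OTUB1_KD library, yet none passed the test (edgeR quasi-likelihood adjusted p = 0.0507 to 0.0845). At an unadjusted p under 0.05 there were 2 of the 4; limma-voom called 4 of them and DESeq2 1. Without OTUB1_KD replicate 1 all 4 passed (adjusted p = 0.00353 to 0.0148), and 3 of the 4 passed without OTUB1_KD replicate 2.

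A wider set of genes nearly lost in OTUB1_KD replicate 2 was then taken: those at 5 CPM or more in each NC library and at most 1% of the NC mean in OTUB1_KD replicate 2. Of 10031 genes at that level in NC, 57 met the rule, the 4 Y-linked genes and 53 others. Prph was the last inside at 0.987% and Add2 the first outside at 1.06%. Their low level in OTUB1_KD replicate 2 is the rule, not a result; replicates 1 and 3 were not used. The 53 others stood at a median of 31.6% of NC in OTUB1_KD replicate 1 (quartiles 19.6% and 41.1%) and 9.30% in OTUB1_KD replicate 3 (quartiles 4.73% and 16.9%), near the Y-linked shares. 36 of them lay within 2-fold of the Y-linked share in OTUB1_KD replicate 1, and 25 in OTUB1_KD replicate 3. Replicate 1 was above replicate 3 for 56 of the 57 genes.

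Not all of these genes kept to that share. The 5 highest in OTUB1_KD replicate 1 were Fosl1, an AP-1 transcription factor, at 166% of NC, Prph, the intermediate filament peripherin, at 118%, Hmga2, a chromatin protein of embryonic and tumour cells, at 88.7%, Nptxr at 80.0% and Zic2, a zinc-finger transcription factor, at 76.4%. In OTUB1_KD replicate 3 the same genes stood at 64.6%, 79.7%, 19.5%, 11% and 21.2%. Fosl1, for example, was at 41.9, 44.9 and 45.6 CPM in NC and 69.6, 0.111 and 27.8 CPM in OTUB1_KD, so OTUB1_KD replicate 1 exceeded NC and the groups overlapped. Leaving out predicted genes, the 5 lowest in OTUB1_KD replicate 1 were Ranbp3l at 0.891%, Ly6f at 1.15%, Lhfpl1 at 1.45%, Lhx9 at 2.32% and Tph1 at 3.97%. Those 5 were nearly lost in all OTUB1_KD libraries: Lhfpl1 was at 20.1, 20.7 and 19.9 CPM in NC and 0.278, 0.0555 and 0.111 CPM in OTUB1_KD. In both replicates, 4 of the 53 exceeded the Y-linked share more than 2-fold and 10 were below it more than 2-fold.

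**Figure D1:**
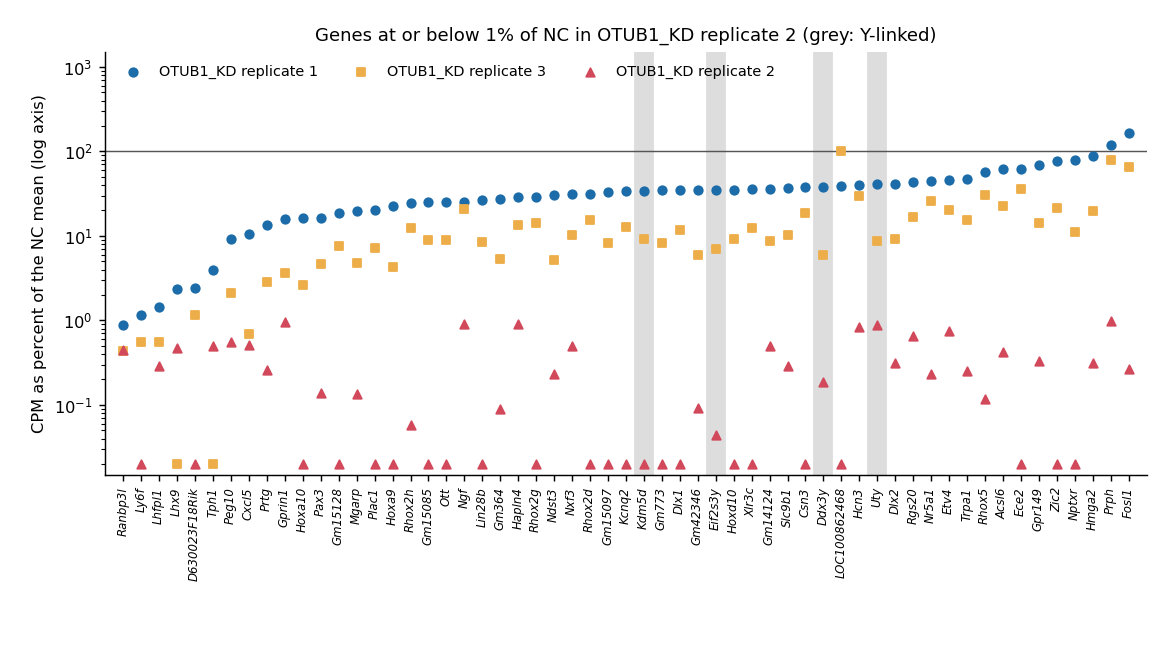
Level of each of the 57 genes in the 3 OTUB1_KD libraries as a percentage of the NC mean (vertical log axis; the line marks 100%), ordered by replicate 1; grey bands mark the 4 Y-linked genes, and genes listed at 0 are drawn at 0.02%. Replicate 1 lies above replicate 3 for 56 genes; replicate 2 lies at or under 1% by the rule.

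Of the OTU family, 14 of 15 members could be tested, of which 3 were higher and 4 lower, a share below that of all genes (log2 scale median -0.20). Otud7b, which trims K11-linked chains, was at 171, 167 and 170.3 CPM in NC and 137, 121 and 116 CPM in OTUB1_KD (log2 fold change -0.44 ± 0.14, adjusted p = 0.0302), and lost the call without any one NC library (adjusted p = 0.0997 to 0.108). Vcpip1, a deubiquitinase of Golgi reassembly, fell to 80.8, 58.2 and 31.1 CPM from 146, 139 and 148 (log2 fold change -1.35 ± 0.33, adjusted p = 0.00968). Otud5 rose from 60.5, 59.5 and 62.1 to 89.1, 115 and 111 CPM (log2 fold change 0.79 ± 0.15, adjusted p = 0.00328). Otud4 was at 169, 166 and 166 CPM in NC and 151, 99.0 and 64.9 CPM in OTUB1_KD and was not called (adjusted p = 0.084). With limma on log2 TPM, 11 members were called.

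Among E2 enzymes, some of which OTUB1 binds, 1 of 18 were higher and 10 lower (median log2 fold change -0.66). Ube2n, Ube2d1 and Ube2e1 were the members of this list that were also listed as OTUB1 partners. Over all genes tested, 39.9% were higher and 25.8% lower. Ube2n (UBC13), the E2 of K63-linked chains and a main OTUB1 partner, fell from 197, 195 and 196 to 133, 106 and 89.0 CPM, with every OTUB1_KD library below NC (log2 fold change -0.84 ± 0.19, adjusted p = 0.00643). Ube2h, not listed as an OTUB1 partner, fell to 151, 175 and 149 CPM from 299, 273 and 275 (log2 fold change -0.84 ± 0.16, adjusted p = 0.00312). Among genes listed as OTUB1 substrates or partners, 3 of 20 were higher and 7 lower (median -0.24). Ero1a, an oxidase of the endoplasmic reticulum, fell to 293, 64.4 and 60.5 from 754, 746 and 779 CPM (log2 fold change -2.45 ± 0.64, adjusted p = 0.0131). Deptor, an mTOR inhibitor, fell to 113, 58.9 and 50.3 from 310.1, 316 and 327 CPM (log2 fold change -2.10 ± 0.32, adjusted p = 0.00133). In both genes OTUB1_KD replicate 1 was the highest of the OTUB1_KD libraries.

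The order of the OTUB1_KD libraries followed the direction of change. Among lower genes, OTUB1_KD replicate 1 was the highest of the 3, and so the nearest to NC, for 39.2% (order 1, 3, 2 from high to low) and 38.9% (order 1, 2, 3); over all genes tested these orders held 17.6% and 18.6%. Among higher genes, 35.2% had the order 2, 3, 1 and 28.0% the order 3, 2, 1, with OTUB1_KD replicate 1 again nearest to NC, against 18.1% and 17.5% of all genes. The direction calls used the same 3 libraries, so these shares are descriptions.

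Markers of lung epithelium and vessels were higher in OTUB1_KD. Counts of called markers here and in the next paragraphs stand beside 39.9% higher and 25.8% lower over all genes tested. All 12 alveolar type 2 markers (surfactant-producing cells) were higher, with summed CPM of 12096, 25423 and 28344 in OTUB1_KD and 204 to 208 in NC. Sftpb, surfactant protein B, was at 0.255, 0.182 and 0.121 CPM in NC and 954, 1885 and 3281 CPM in OTUB1_KD (log2 fold change 13.37 ± 0.76, adjusted p = 2.71e-05). Of the alveolar type 1 markers (gas-exchange cells) 10 of 11 were higher. Ager, their defining receptor, was at 0.765, 1.16 and 0.971 CPM in NC and 578, 1645 and 2221 CPM in OTUB1_KD (log2 fold change 10.57 ± 0.70, adjusted p = 4.52e-05), while Cav1, which NC cells also expressed, was at 853, 823 and 824 CPM in NC and 888, 1199 and 1029 CPM in OTUB1_KD and was not called (adjusted p = 0.174). In each of these lists OTUB1_KD replicate 1 had less than OTUB1_KD replicate 2 or 3.

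Airway club cell markers summed to 14670.4, 36448 and 23564 CPM in OTUB1_KD and 15.4 to 17.1 in NC, and all 10 were higher. Cyp2f2, a cytochrome P450 of club cells, was at 0.446, 0.547 and 0.364 CPM in NC and 728, 1943 and 1596 CPM in OTUB1_KD (log2 fold change 11.60 ± 0.58, adjusted p = 2.02e-05). Ciliated cell markers summed to 1406, 2988 and 2520.5 CPM against 243 to 247; Sec14l3, with no count in NC, was at 713, 1615 and 1072 CPM, at least 18376-fold higher. All 14 capillary endothelial markers were higher and summed to 1360.5, 3383 and 3516 CPM against 38.8 to 41.2. Cdh5 (VE-cadherin), the endothelial junction protein, had no count in NC and was at 212, 477 and 608 CPM, at least 7014-fold higher, and Pecam1 was at 1.4, 0.669 and 1.46 CPM in NC and 289, 604 and 562 CPM in OTUB1_KD (log2 fold change 8.68 ± 0.50, adjusted p = 2.78e-05). Club cell RNA was highest in OTUB1_KD replicate 2; capillary RNA was similar in OTUB1_KD replicates 2 and 3.

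**Figure D2:**
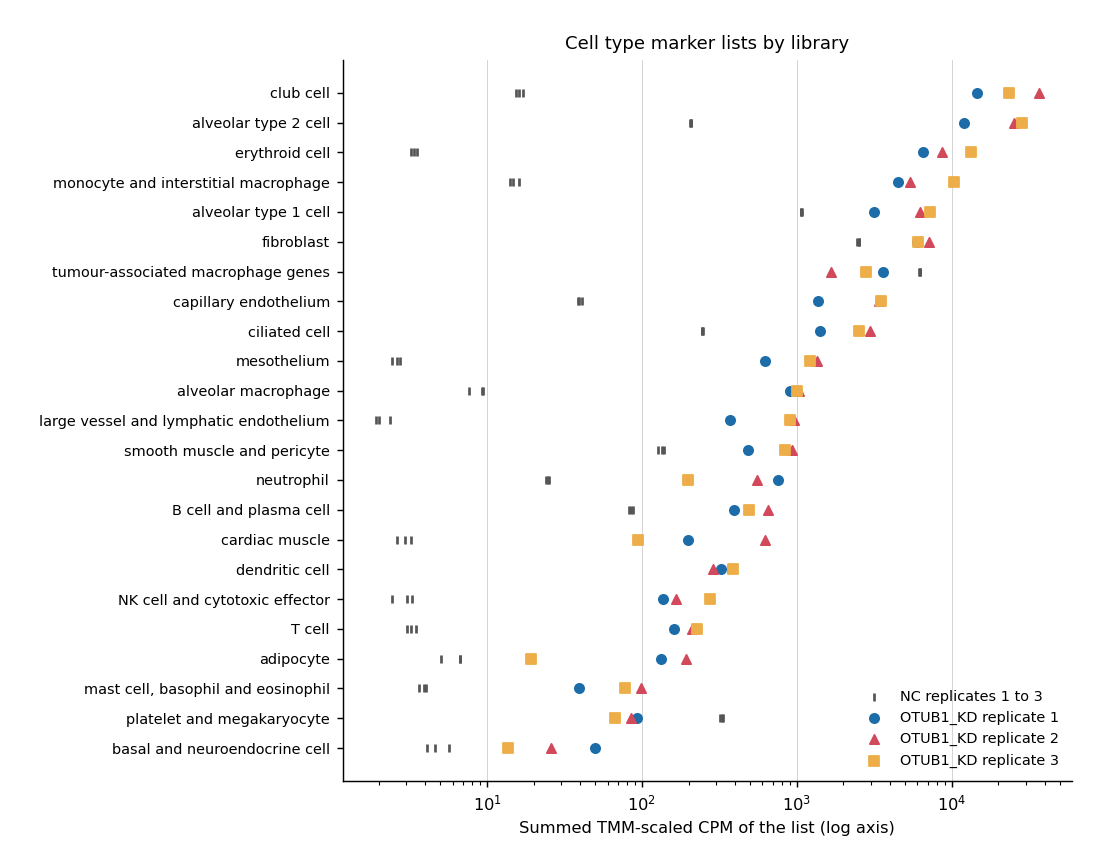
Summed CPM of each cell type marker list (horizontal log axis), with ticks for the 3 NC libraries and 1 symbol for each OTUB1_KD library. Alveolar, club, ciliated and vessel sums are lowest in replicate 1 (capillary 1360.5, 3383 and 3516 CPM). The neutrophil sum is lowest in replicate 3 (759.9, 557 and 198 CPM).

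Leukocyte markers were higher as well. All 14 monocyte and interstitial macrophage markers were higher, summing to 4481, 5360.1 and 10345 CPM in OTUB1_KD and 14.1 to 16.2 in NC. Apoe, a lipid carrier that macrophages secrete, was at 4.97, 5.29 and 4.25 CPM in NC and 626, 612 and 959 CPM in OTUB1_KD (log2 fold change 7.24 ± 0.31, adjusted p = 1.33e-05). Csf1r, the macrophage growth factor receptor, was at 0.0637, 0.122 and 0.121 CPM in NC and 167, 167 and 234 CPM in OTUB1_KD (log2 fold change 10.75 ± 0.32, adjusted p = 1.03e-05). T cell markers were far less abundant, at 161, 211 and 225 CPM in sum against 3.06 to 3.47, and 13 of 15 were higher, the others not being matched to a gene of the table. The T cell kinase Lck was at 0.191, 0.182 and 0.0607 CPM in NC and 22.4, 33.0 and 38.4 CPM in OTUB1_KD (log2 fold change 7.69 ± 0.42, adjusted p = 2.46e-05). Markers of NK and cytotoxic cells summed to 136, 166 and 277 CPM, highest in OTUB1_KD replicate 3, and B and plasma cell markers to 390.3, 655 and 491 CPM, highest in OTUB1_KD replicate 2.

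Antigen presentation genes were higher too, where 39.9% of all genes tested were higher and 25.8% lower. All 10 class II genes were higher, and their sum was 3413, 5007 and 7212 CPM against 83.3 to 85.8. Cd74, the class II invariant chain, was at 24, 25.4 and 24.4 CPM in NC and 1273, 2042 and 2655 CPM in OTUB1_KD (log2 fold change 6.34 ± 0.36, adjusted p = 2.71e-05). For class I, 15 of 18 were higher and 2 lower (median log2 fold change 1.73). H2-K1 rose from 217, 221 and 227 to 1813, 2406 and 2520.2 CPM (log2 fold change 3.34 ± 0.22, adjusted p = 4e-05), and its light chain B2m from 552, 518 and 516 to 2035, 1915 and 1714 CPM (log2 fold change 1.84 ± 0.18, adjusted p = 0.00019). Pdia3, a chaperone of class I loading, went the other way, from 1183, 1182 and 1193 to 886, 624 and 570.2 CPM (log2 fold change -0.77 ± 0.22, adjusted p = 0.0188), a call lost without any one NC library (adjusted p = 0.0613 to 0.0624). The class I sum was 10622, 9914 and 11461 CPM over the OTUB1_KD libraries, against 5097 to 5165 in NC, although their Y-linked shares differed widely.

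Of 24 interferon-response genes, 22 were tested and 21 were higher, where 39.9% of all genes tested were higher. Gbp2, an interferon-induced GTPase, was at 3.76, 3.22 and 2.61 CPM in NC and 774, 771 and 627 CPM in OTUB1_KD (log2 fold change 7.82 ± 0.27, adjusted p = 1.15e-05). The sum over the list was nearly even across OTUB1_KD at 3220.3, 3137 and 2955 CPM, against 336 to 342 in NC. Of 15 complement genes, 14 were tested and each of those rose; C3, the central component, reached 4371, 7942 and 8137 CPM from 133, 141 and 134 (log2 fold change 5.65 ± 0.34, adjusted p = 3.4e-05). The part of cell makeup in these rises was not tested.

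The OTUB1_KD libraries also differed among themselves beyond the Y-linked share. A weighted sum was computed for OTUB1_KD replicates 1 and 3 as the Y-linked share times the NC mean plus the remainder times OTUB1_KD replicate 2, on CPM over library totals. This reference was added after the data had been seen, and it is a description with no test. It takes carcinoma RNA in OTUB1_KD to have the NC profile and all other RNA to be like OTUB1_KD replicate 2. Departures in carcinoma cells, in host tissue and in OTUB1_KD replicate 2 itself cannot be told apart. Over 13076 genes at 5 CPM or more in a measured value or a sum, 83.3% of genes in OTUB1_KD replicate 1 lay within 1.5-fold of the sum, against 47.8% for NC alone and 59.1% for OTUB1_KD replicate 2 alone. In OTUB1_KD replicate 3 the shares were 68.4%, 29.9% and 66.3%. More than 2-fold above the sum were 388 genes in OTUB1_KD replicate 1 and 368 in OTUB1_KD replicate 3; more than 2-fold below it were 369 and 1024. Otub1 itself was at 58.6 CPM against a weighted sum of 58.2 CPM in OTUB1_KD replicate 1 and at 71.2 CPM against a weighted sum of 51.0 CPM in OTUB1_KD replicate 3.

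Of 8841 genes at 20 CPM or more, 77 were more than 2-fold above the sum in both replicates and 33 more than 2-fold below it in both; 19 exceeded it more than 4-fold in both. The genes named next were chosen after their values were seen. Those highest above the sum in both included genes of activated macrophages. The set also held genes expressed in NC, such as Fosl1, Ccl2 and Capg (NC means of 43.1, 128 and 265 CPM over library totals). Arg1, arginase 1, which consumes arginine, was at 0.828, 0.486 and 0.546 CPM in NC and 349, 7.27 and 168 CPM in OTUB1_KD (log2 fold change 8.13 ± 1.48, adjusted p = 0.00292; adjusted p = 0.0589 with limma-voom). Acod1, which makes itaconate, had no count in NC and was at 30.6, 1.67 and 43.7 CPM. Cxcl9, a chemokine that attracts T cells, was at 0, 0.0608 and 0 CPM in NC and 176, 9.38 and 163 CPM in OTUB1_KD. In Arg1, Acod1 and Cxcl9, OTUB1_KD replicates 1 and 3 were far above OTUB1_KD replicate 2, which was itself above NC. The choice of genes favours that pattern.

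The scavenger receptor Msr1 was at 0.127, 0.243 and 0.121 CPM in NC and 149, 10.9 and 59.1 CPM in OTUB1_KD. Nos2, inducible nitric oxide synthase, was at 6.95, 8.63 and 9.22 CPM in NC and 71.0, 10.3 and 75.2 CPM in OTUB1_KD (log2 fold change 2.66 ± 0.68, adjusted p = 0.0123), a call lost without OTUB1_KD replicate 3, with limma-voom and with the replicate block (adjusted p = 0.0517, 0.0684 and 0.0532). The haem-degrading enzyme Hmox1 was at 34.3, 30.6 and 34.8 CPM in NC and 439, 43.8 and 234 CPM in OTUB1_KD (log2 fold change 2.85 ± 0.73, adjusted p = 0.0123). These genes were chosen for lying above the sum in OTUB1_KD replicates 1 and 3. Their lower levels in OTUB1_KD replicate 2 and NC thus follow from the choice. In OTUB1_KD replicate 2, Nos2 and Hmox1 were near the NC level, while Msr1, at 10.9 CPM, was well above it. As a list, monocyte and interstitial macrophage markers lay a median 1.25 (log2) above the sum in OTUB1_KD replicate 1 and 0.54 in OTUB1_KD replicate 3; the list of tumour-associated macrophage genes, 1.5 and 0.92. The latter list includes Spp1, Fn1 and Gpnmb, which were high in NC, and its summed CPM was 6166 to 6251 in NC and 3579.8, 1672 and 2786 in OTUB1_KD.

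Other host genes were low in single libraries. Several secretory airway genes were low in OTUB1_KD replicate 3. Clca1, a mucus protein of goblet cells, was at 83.9, 643 and 0.222 CPM in OTUB1_KD. Bpifa1, an airway defence protein, was at 267, 542 and 0.941 CPM, and the mucin Muc5b at 241, 361 and 8.81 CPM. The club cell sum was not lowest there, but Scgb1a1 made up 16556 of its 23564 CPM in OTUB1_KD replicate 3. By member, the median log2 ratio of club cell markers to NC was 10.66, 11.72 and 9.72, lowest in OTUB1_KD replicate 3. Neutrophil markers summed to 759.9, 557 and 198 CPM, lowest in OTUB1_KD replicate 3. S100a9, a neutrophil calcium-binding protein with no count in NC, was at 225, 146 and 51.1 CPM, at least 2281-fold higher. Cardiac muscle markers summed to 198, 627 and 94.4 CPM against 2.61 to 3.22 in NC; Myh6, the heart myosin heavy chain, was at 58.1, 162 and 11 CPM, highest in OTUB1_KD replicate 2. Clca1, Bpifa1, Muc5b and the heart and neutrophil sums were lowest in OTUB1_KD replicate 3. The club and ciliated cell sums were lowest in OTUB1_KD replicate 1, but 7 of 12 ciliated cell markers had the order 2, 1, 3 from high to low. Against the weighted sum, the median log2 ratio of ciliated cell markers was -0.56 in OTUB1_KD replicate 1 and -1.40 in OTUB1_KD replicate 3.

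**Figure D3:**
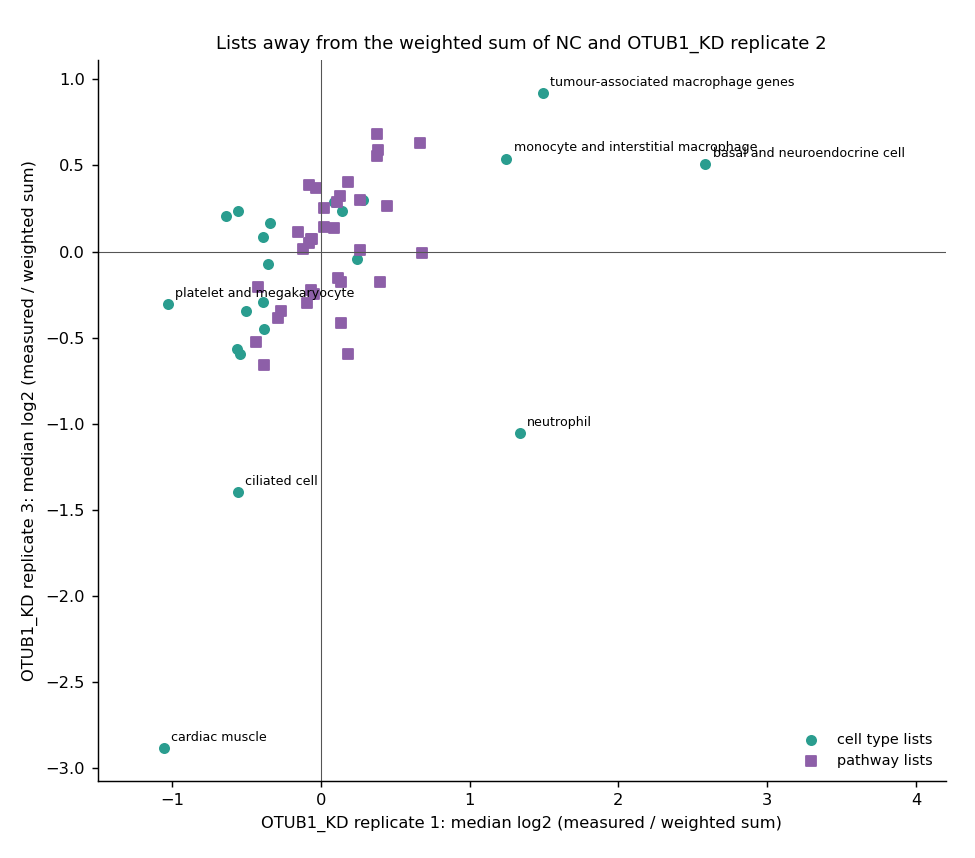
Median log2 ratio of the measured level to the weighted sum for each list, in OTUB1_KD replicate 1 (horizontal) and 3 (vertical); 0 means at the sum. Tumour-associated macrophage genes lie above it in both (1.5 and 0.92), and cardiac muscle below it in both (-1.05 and -2.88).

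Genes of cell division were lower. Of 20 mitosis genes 19 fell, where 25.8% of all genes tested were lower. Their summed CPM was 1679, 396 and 679 in OTUB1_KD against 4866 to 4995 in NC. Top2a, the topoisomerase of dividing cells, was at 1289, 1263 and 1209.6 CPM in NC and 349, 54.3 and 127 CPM in OTUB1_KD (log2 fold change -2.83 ± 0.64, adjusted p = 0.00732). Of 18 DNA replication genes 16 fell; Pcna, the sliding clamp of DNA polymerase, was at 335, 326 and 327 CPM in NC and 209.9, 93.8 and 131 CPM in OTUB1_KD (log2 fold change -1.18 ± 0.30, adjusted p = 0.0112). The replication sum was 1505, 463 and 998 CPM against 3052 to 3074 in NC, and OTUB1_KD replicate 1 was the highest of the OTUB1_KD libraries in both sums. Mcm3 and Mcm6, helicase subunits, fell (log2 fold changes -1.93 and -1.71), but lost the call without OTUB1_KD replicate 3 (adjusted p = 0.0529 and 0.0709).

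Glycolysis and hypoxia genes summed to 12252, 3739.8 and 9154 CPM against 19688 to 20385; 2 of 20 were higher and 10 lower, and 6 were called when any one NC library or OTUB1_KD replicate 3 was left out. Pgk1, a glycolytic kinase, was at 3436, 3291 and 3348 CPM in NC and 1212, 139 and 593 CPM in OTUB1_KD (log2 fold change -2.37 ± 0.69, adjusted p = 0.0202; adjusted p = 0.0812 without OTUB1_KD replicate 3). Gapdh was at 2966, 3149 and 3264 CPM in NC and 2267, 651 and 2282 CPM in OTUB1_KD and was not called (adjusted p = 0.139). Both genes had their lowest level in OTUB1_KD replicate 2. Of 20 cytosolic ribosomal proteins, 10 fell; 6 were called when any one NC library was left out and 16 with limma on log2 TPM. Rpl4, of the large subunit, was at 2655, 2594 and 2522 CPM in NC and 1629, 893 and 910.2 CPM in OTUB1_KD (log2 fold change -1.18 ± 0.29, adjusted p = 0.0096). Of 19 mevalonate and fatty acid synthesis genes 11 rose and the others were not called. For the lists of this paragraph, the shares over all genes tested were 39.9% higher and 25.8% lower. Fasn, fatty acid synthase, rose from 177, 192 and 188 to 400.4, 348 and 649 CPM (log2 fold change 1.33 ± 0.26, adjusted p = 0.00412).

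Ferroptosis, named in the study's title, is cell death by iron-dependent lipid peroxidation, held back by cystine uptake, glutathione and GPX4. Of the genes of that axis 4 of 16 were higher and 3 lower, below the share over all genes, and 4 were called when any one NC library was left out; the list's median, 0.03, changed sign under 7 of the alternatives tried. Txnrd1, thioredoxin reductase, fell from 405, 385 and 399.6 to 198, 93.5 and 127 CPM (log2 fold change -1.51 ± 0.28, adjusted p = 0.00343). Gpx1, a peroxide-reducing enzyme, rose from 116, 126 and 118 to 317, 305 and 459 CPM (log2 fold change 1.58 ± 0.21, adjusted p = 0.000699). Of iron-handling genes 6 of 16 were higher and 2 lower, and their median (-0.08) changed sign without OTUB1_KD replicate 2. Trf, the iron carrier transferrin, rose from 1.02, 0.669 and 0.546 to 627, 607 and 571 CPM (log2 fold change 9.65 ± 0.31, adjusted p = 1.03e-05). The list of lipid peroxidation enzymes also holds enzymes that make fatty acids, such as Scd1. Of its tested members 10 of 17 were higher and 3 lower (median 1.12). Scd1, which makes monounsaturated fatty acids, rose from 202, 198 and 193 to 997, 1634 and 1729.7 CPM (log2 fold change 2.88 ± 0.26, adjusted p = 0.000146), and Ptgs1, a cyclooxygenase, fell from 311, 325 and 329.6 to 198, 196 and 164 CPM (log2 fold change -0.79 ± 0.16, adjusted p = 0.00438). These lists thus held changes in both directions, as did all genes tested (39.9% higher and 25.8% lower).

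Signalling lists were mixed, and their counts stand beside 39.9% higher and 25.8% lower over all genes tested. In the TGF-beta pathway 10 of 17 were higher and 3 lower of those tested, and 8 were called when any one NC library was left out. Tgfbr3, the co-receptor betaglycan, fell from 427, 434 and 432 to 189, 111 and 92 CPM (log2 fold change -1.72 ± 0.29, adjusted p = 0.00198), while Acvrl1, an endothelial receptor of the family, rose from 1.27, 1.09 and 1.09 to 168, 429 and 545 CPM (log2 fold change 8.36 ± 0.57, adjusted p = 4.71e-05). Among unfolded protein and ATF4 response genes 3 of 18 were higher and 6 lower, and 14 were called without OTUB1_KD replicate 1. Pdia4, a disulfide isomerase, fell from 419, 441 and 448 to 263, 148 and 179.8 CPM (log2 fold change -1.15 ± 0.24, adjusted p = 0.00545). Among apoptosis regulators 7 of 18 were higher and 5 lower, with a median of 0.07 that changed sign under 6 of the alternatives. Bcl2, which blocks apoptosis, fell from 175, 181 and 176 to 47.7, 29.7 and 25.3 CPM (log2 fold change -2.37 ± 0.26, adjusted p = 0.000296).

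**Figure D4:**
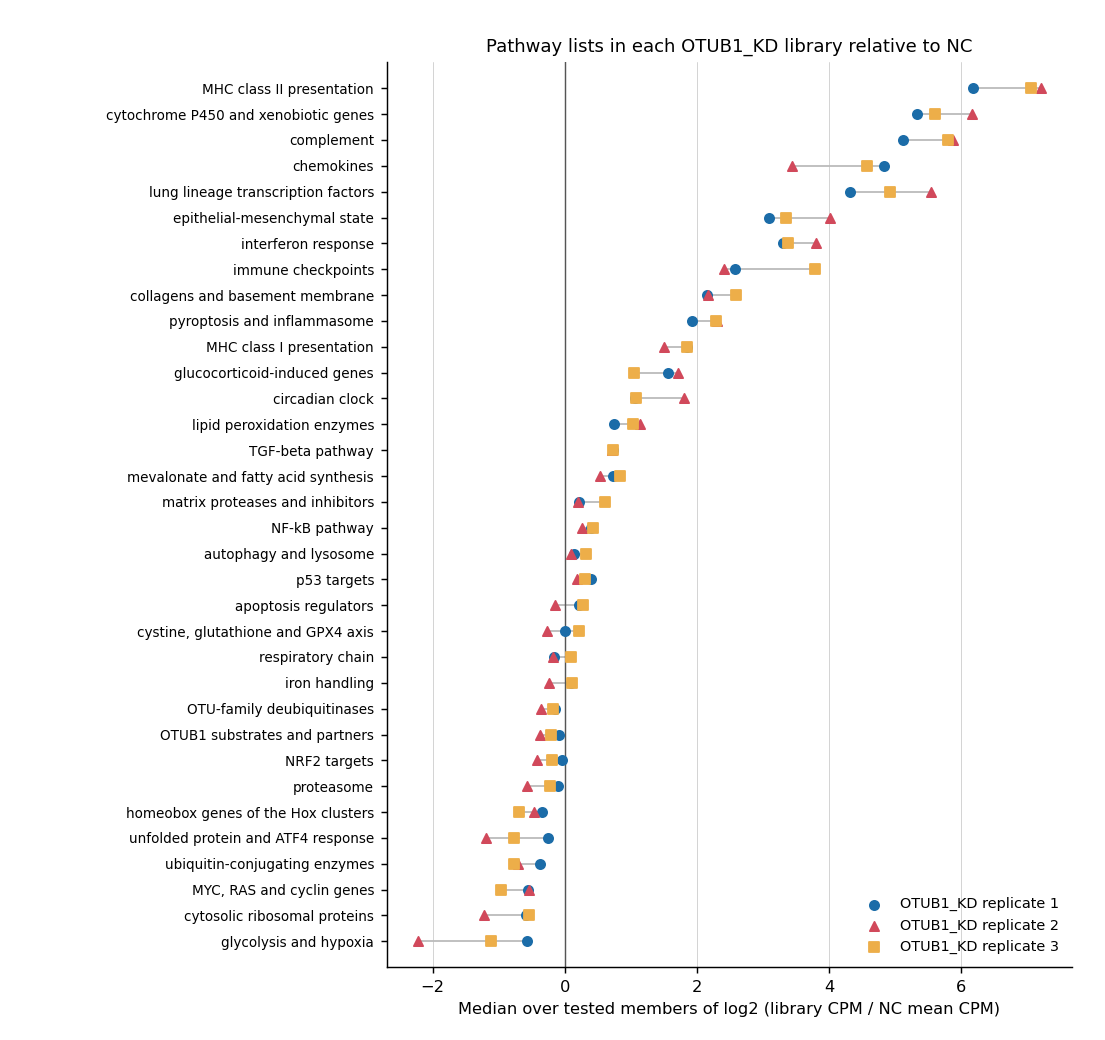
For each pathway list, the median over tested members of the log2 ratio of each OTUB1_KD library to the NC mean; 0 means at NC. Glycolysis and hypoxia spreads from -0.57 in replicate 1 to -2.22 in replicate 2, while the TGF-beta medians of the 3 libraries nearly coincide (0.73, 0.72 and 0.72).

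The largest rises in CPM among called genes were in Scgb1a1 (club cell secretoglobin), Sftpc, C3, Lyz2, Hbb-bs, Hba-a1, Cbr2, Sftpa1, Sftpb and H2-K1. Scgb1a1 went from 0.255, 0.304 and 0.0607 to 10805, 27174 and 16556 CPM and Lyz2, macrophage and type 2 cell lysozyme, from 3.44, 4.07 and 3.46 to 2639.7, 4025 and 8092 CPM. The largest falls were in Eef1a1, Spp1, Pgk1, Hsp90ab1, Rps2, Pabpc1, Ptma, Nedd4, Rpsa and Pdia6. Nedd4, a ubiquitin ligase, fell from 2785, 2807 and 2762 to 1134, 659.9 and 739 CPM (log2 fold change -1.72 ± 0.26, adjusted p = 0.00123). Ptma, prothymosin alpha, fell from 3550.3, 3551 and 3595 to 2039.6, 1157 and 1203 CPM (log2 fold change -1.28 ± 0.28, adjusted p = 0.00589). Some of these 10 falls lost the call without OTUB1_KD replicate 3: Eef1a1, Spp1, Pgk1 and Pabpc1 at adjusted p = 0.0699, 0.0689, 0.0812 and 0.065, and Rps2 at 0.0536. Eef1a1 and Rpsa also lost it without any one NC library (adjusted p = 0.0571 to 0.064 and 0.0665 to 0.0685).

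On the log2 scale, the largest rises among genes at 1 CPM or more in each NC library were in Lyz2, Acvrl1, Sparcl1, Vwf, Gbp2, Adgrf5, Ucp2, Krt7, Sema3c and Icam1, with log2 fold changes from 7.55 to 10.39. Some are endothelial: Vwf, the clotting factor that vessels store, went from 1.53, 1.46 and 1.46 to 193, 484 and 549.7 CPM. The largest falls among genes at 1 CPM or more in each OTUB1_KD library were in Cxcl5, Peg10, Slc5a3, Amot, Cxcl1, Fbxo48, Akap6, Zbed6, Col24a1 and Ulbp1 (log2 fold changes -4.75 to -3.46). Cxcl5, a neutrophil chemokine, fell from 301, 316 and 310.2 to 30.8, 1.5 and 2.10 CPM (log2 fold change -4.75 ± 1.17, adjusted p = 0.0105). Amot, angiomotin, a scaffold of the Hippo pathway, fell from 172, 170.4 and 172 to 9.96, 15.2 and 9.47 CPM (log2 fold change -3.89 ± 0.23, adjusted p = 2.91e-05). In OTUB1_KD replicate 1 Amot stood at 10.2 CPM against a weighted sum of 71.7 CPM, so it was low in every OTUB1_KD library and below the sum where carcinoma RNA was highest.

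The OTUB1_KD libraries differed among themselves far more than the NC libraries did. Over 9247 genes at 5 CPM or more in all 6 libraries, the median range of log2 CPM was 0.63 in OTUB1_KD and 0.0936 in NC, and 1982 genes ranged more than 2-fold in OTUB1_KD. The widest were Myc, Egln3, Npcd, Hmga1, Ccl2, Slc16a3, Mybl2, Spp1, Adm and Col5a3. Myc, the growth-promoting transcription factor, was at 630.3, 629 and 618 CPM in NC and 332, 10.3 and 127 CPM in OTUB1_KD. Every OTUB1_KD library was below NC, as for 35.2% of all genes tested. Myc did not pass the test (log2 fold change -2.0 ± 0.98, adjusted p = 0.109). It passed without OTUB1_KD replicate 1 or without OTUB1_KD replicate 2 (adjusted p = 0.0363 and 0.0322). Egln3, an oxygen-sensing prolyl hydroxylase, was at 837, 856 and 871 CPM in NC and 316, 11.9 and 47.6 CPM in OTUB1_KD (adjusted p = 0.0521). Ccl2, a monocyte chemokine, was at 132, 125 and 137 CPM in NC and 177, 12.3 and 163 CPM in OTUB1_KD, with OTUB1_KD replicates 1 and 3 above NC and OTUB1_KD replicate 2 far below it. OTUB1_KD replicate 2 was the lowest of the 3 for each of these 10 genes.

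By contrast, 993 genes (10.7%) ranged less than 0.25 (log2) over the OTUB1_KD libraries; 222 of them were higher and 279 lower. Among the most abundant were Tpt1, B2m, Col4a1, Msn, Rpl9, Rpl17, Npc2 and Ctdsp2. Npc2, a lysosomal cholesterol carrier, was at 292, 275 and 273 CPM in NC and 958, 1134 and 1076 CPM in OTUB1_KD (log2 fold change 1.91 ± 0.17, adjusted p = 0.000131), with no overlap and little spread in either group. Col4a1, a basement membrane collagen chain, was at 939.9, 972 and 978 CPM in NC and 833, 837 and 927 CPM in OTUB1_KD and was not called (adjusted p = 0.438). Ctdsp2, a phosphatase, was at 569.7, 569.6 and 589.5 CPM in NC and 397, 427 and 423 CPM in OTUB1_KD (log2 fold change -0.47 ± 0.16, adjusted p = 0.032), a call lost without any one NC library (adjusted p = 0.108 to 0.12).

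**Figure D5:**
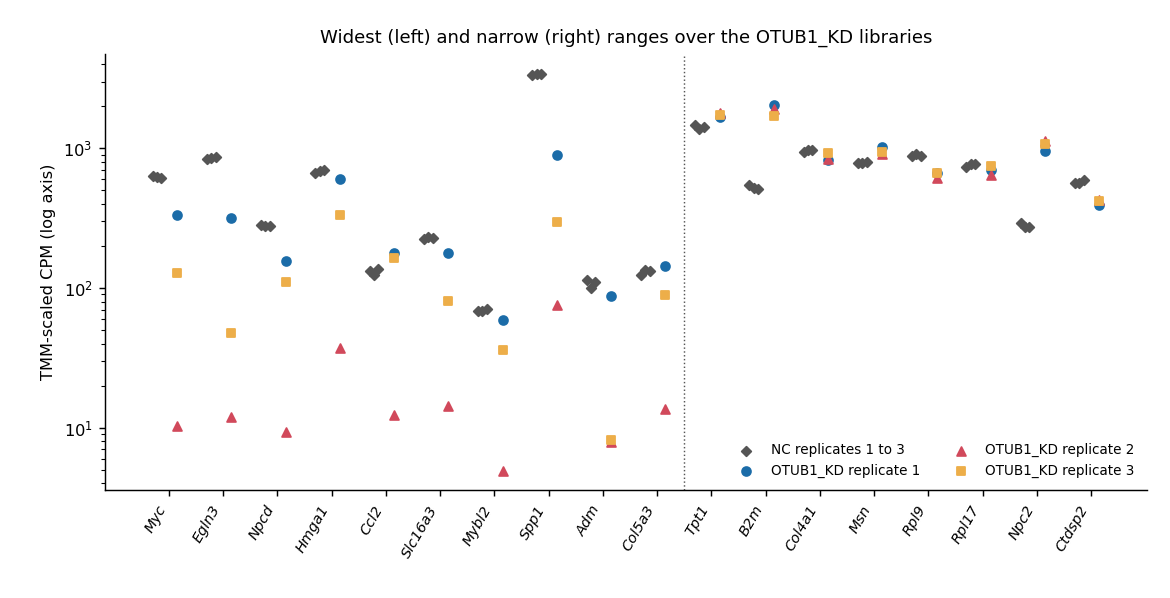
CPM (vertical log axis) in each library for the 10 genes with the widest range over the OTUB1_KD libraries (left of the dotted line) and for the abundant genes named above with a range under 0.25 log2 (right). Diamonds are NC libraries. Myc spans 332, 10.3 and 127 CPM over OTUB1_KD replicates 1 to 3, while Npc2 stays at 958, 1134 and 1076 CPM.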

How the data were processed

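RNA was sequenced from 3 NC and 3 OTUB1_KD libraries. The authors deposited 1 table with expected counts and TPM (length-scaled abundance) for 70659 transcripts, per the file headers. The build GRCm39 and the tools RSEM 1.3.1, Bowtie2 and DESeq2 1.4.5 appear in the submitters' processing notes, with no role stated. Whether counting used strand is likewise not stated there, and reads of a gene and an antisense or near-identical partner may be mixed. Other libraries' values, in 24 columns, were not used.

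Deposited expected counts were summed per Entrez gene and rounded, giving 19212 genes. Symbols for 19155 of them came from RefSeq names. Counts without a symbol were 0.146% to 0.342% of a library. Totals were 16062806 to 18028828 counts, and printed intervals cover counting error only.

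Tests used edgeR 4.0.16 in R 4.3.3 (default low-count filter by group, TMM factors, robust quasi-likelihood test, Benjamini-Hochberg adjusted p under 0.05), fitted on these 6 libraries over all genes. Values after ± are standard errors of the log2 fold change. On simulated counts over 14633 genes of this comparison, the test recovered 20% of 2-fold and 90% of 4-fold changes, with 7 false among 117 calls. The simulation changed 100 genes by 2-fold and 100 by 4-fold, whereas 9721 genes were called here, and the adjusted p cut-off depends on that number. Sensitivity to 2-fold changes in this comparison was therefore not measured.

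There were 17 alternatives: DESeq2 1.42.0, limma-voom and limma 3.58.1 on log2 of the authors' TPM plus 1 or 0.1, 3 other scalings, 2 other filters, a replicate block, each library left out, and OTUB1_KD replicate 1 alone. Each changed 1 choice, except that those on TPM changed both the measure and the test. The members and the 60 gene lists (894 of 901 entries matched) were chosen with earlier results of these data known. Genes named were up to 4 of the most abundant of each list described, the 10 largest changes in each direction by CPM and by log2 fold change, the 5 highest and 5 lowest in OTUB1_KD replicate 1 among genes nearly lost in replicate 2, and the 10 widest and 10 most abundant narrow genes by range over OTUB1_KD. Genes described against the weighted sum, and the secretory airway genes, were chosen after their values were seen. Ratios to that sum used log2 with 0.1 CPM added to both. A few genes that meet the naming rule are not reported here.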

Additional observations from a re-analysis of the deposited data

How the results depend on the processing

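Leaving out 1 library at a time gave 7991 to 11141 genes called, 5324 to 6422 higher and 2665 to 4719 lower, and an Otub1 log2 fold change of -0.24 to -0.53. Otub1 was lower under every alternative tried, and it passed the test at -0.53 without OTUB1_KD replicate 3, at -0.55 and -0.56 on log2 TPM plus 1 and 0.1 (limma adjusted p = 0.0303 and 0.0299), and at -0.40 with OTUB1_KD replicate 1 alone, where the lone library is assumed to vary like NC. Same-numbered libraries did not deviate together (correlations -0.00229 to 0.0537), so the numbers are not taken as pairs; with the replicate block 9362 genes were called, 5612 higher and 3750 lower, and Otub1 stood at -0.38 (adjusted p = 0.149). The median over all genes was 0.16, but -0.02 on log2 TPM plus 1 and 0.26 with no filter. Leaving out 1 library moved the log2 fold change of Fosl1 between -1.68 and 0.14, of Ccl2 between -0.60 and 0.36 and of Add2 between -1.61 and 0.14, the highest value in each being without OTUB1_KD replicate 2 and the lowest without OTUB1_KD replicate 1. With OTUB1_KD replicate 1 alone they stood at 0.65, 0.43 and 0.64, and Prph and Col5a3 also lay above 0, at 0.16 and 0.13. Of 119 other genes named, 76 kept their direction and side of the threshold under every alternative. Besides those given with the results, Rpl9 and Clca1 lost their calls without any one NC library (adjusted p = 0.0505 to 0.142), and Fn1 without any one NC library or OTUB1_KD replicate 3. Clca1 also lost its call under limma-voom, log2 TPM and the replicate block, Bpifa1 under limma-voom, Rpl9 and Ctdsp2 under library totals, upper-quartile factors and the replicate block, and Otud7b under library totals and the replicate block. Besides the Y-linked genes and Myc, calls were gained when 1 OTUB1_KD library was left out by Adm, Cav1, Egln3, Gapdh, Npcd, Nptxr, Otud4, Slc16a3, Tpt1 and Zic2. With all libraries kept and Y-linked genes left aside, calls were gained by Egln3, Msn, Npcd and Tpt1 under DESeq2. Egln3 and Adm gained them under limma-voom. On log2 TPM plus 1 they were gained by Egln3, Adm, Myc, Otud4, Nptxr and Zic2 (Myc at limma adjusted p = 0.0434). Egln3 gained a call with DESeq2 size factors or no filter, and Otud4 with the replicate block. Of the Y-linked genes, Uty also passed with DESeq2 size factors or no filter (edgeR adjusted p = 0.0482 and 0.0484), and all passed on log2 TPM plus 1. Hmga1, Hmga2, Mybl2, Col4a1, Msn and Rpl17 gained calls with OTUB1_KD replicate 1 alone. Medians of the cystine and glutathione, iron, p53 target, respiratory chain and apoptosis lists changed sign under at least 1 alternative; the cause was not tested. At this depth, genes under 1 CPM in NC rest on few counts.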
